A study of Mus musculus with 7 samples.

Results

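The 83 genes described here code for the proteins of the cytosolic ribosome. They were taken from the 32285 genes of the deposited matrices by symbol: names of the Rpl and Rps series with a number, plus Rpsa, Rplp0, Rplp1 and Rplp2. Of these, 32 carry small subunit names and 51 carry large subunit names. The choice went by name alone, but it was made with earlier results of these data known. The libraries came from single-nucleus RNA sequencing of fresh-frozen mouse brain, with the tissue labelled as subcortex, thalamus and hippocampus. All mice were 5xFAD +/-, a transgenic amyloid line in which the mutant human transgenes are driven by the neuronal Thy1 promoter. At 4 months of age they received a control AAV or an ANGPT2 AAV by retro-orbital injection, and brains were collected at 6 months of age. ANGPT2, angiopoietin-2, is a secreted protein that binds Tie2 on endothelial cells. The promoter in the viral vector was not given in the sources used here. The control group held 3 libraries, a male and a female of batch 1 and a male of batch 2. The ANGPT2 group held 4, a male and a female of each batch, so that the females of batch 2 had no control library. The study compared the groups; here the comparison was made for the ribosomal protein genes alone.

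A ribosome joins a small subunit, which reads the messenger RNA, to a large subunit, which forms the peptide bond. Ribosomal protein messenger RNAs are made in every cell, and many begin with a C followed by a run of pyrimidines, the terminal oligopyrimidine tract through which mTORC1 signalling controls their translation. Mature messenger RNAs of these genes lie mainly in the cytoplasm, and a nuclear library samples precursors, RNA on its way out and whatever cytoplasm stays attached.

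The start sites were looked up because the tract is a feature that the choice by name did not use. RefSeq promoter windows (GRCm38.p6) were found for 63 of the 83 genes. A C at the annotated start followed without a break by at least 4 C or T bases was searched only on the strand that reads like the RNA. It was present in 13 of the 63 genes (20.6%) and in 813 of 27025 genes of the table (3.01%). The tract was not particular to the ribosomal proteins: 6 of 21 translation factors and ribosome partners had it (28.6%), and 0 of 69 mitochondrial ribosomal protein genes did. With a search from 10 bases before to 10 bases after the start, the count was 34 of 63 (54.0%) against 28.8% of all genes, 42.9% of the partners and 37.7% of the mitochondrial ribosomal protein genes. The windows below run from 15 bases before the start to 15 bases from the start on. They show the tract in a small subunit protein phosphorylated by S6 kinases (Rps6, chr4:86857353-86857382, minus strand), a stalk protein (Rplp2, chr7:141447636-141447665, plus strand), large subunit proteins (Rpl14, chr9:120571502-120571531, plus strand; Rpl15, chr14:18270972-18271001, minus strand) and a further small subunit protein (Rps27, chr3:90213634-90213663, minus strand). Rpl10a, whose share differed most between nucleus classes, is set beside them without a tract at this start (chr17:28328456-28328485, plus strand). It is among the 34 genes with a tract in the wider search, and another annotated start of Rpl10a is not printed. Capitals mark the tract.
Rps6: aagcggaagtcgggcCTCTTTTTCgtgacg
Rplp2: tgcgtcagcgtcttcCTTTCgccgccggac
Rpl14: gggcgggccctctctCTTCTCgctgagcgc
Rpl15: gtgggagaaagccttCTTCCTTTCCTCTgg
Rps27: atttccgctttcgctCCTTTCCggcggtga
Rpl10a: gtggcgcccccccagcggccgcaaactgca

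In the GENCODE M21 annotation of the same build all 83 genes were protein coding and lay on 19 chromosomes. Exons of 80 genes shared at least one 60-base stretch with another gene, a pseudogene in each of the 80, and for 28 genes over 50 percent of the stretches were shared. Of the 83 genes, 18 overlapped another coding gene and 30 held 59 small nucleolar RNA genes inside their span. Reads of such genes can be split or dropped in counting, so levels between members carry that uncertainty.

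The libraries held 25466033 to 100529717 unique molecular identifiers (UMIs, counted RNA molecules). Median UMIs per barcode ran from 3678 to 8278 in batch 1 and from 2262 to 3407 in batch 2. Pairs of libraries shared 63 to 137 barcodes, at most 1.57% of the smaller library. After filters and removal of 4072 called doublets 54097 nuclei remained, of which 6775 (12.5%) stayed without a class name. The unnamed share was 27.9% in the ANGPT2 female of batch 1 and 1.19% in the ANGPT2 female of batch 2. The classes were named from marker genes by clusters made without the ribosomal protein genes, and each is a class of nuclei that resembles the type it is named for. No class should lack these genes, so no background class was at hand for RNA free in the droplets, whose part was not tested.

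The kept nuclei held 701057 ribosomal protein UMIs. Levels are given in CPM, UMIs of a gene scaled to a common total per library, and are not divided by gene length unless stated. The median gene had 23.5 CPM, 77 of the 83 lay above 10 CPM, and the 5 highest held 11.95% of all ribosomal protein UMIs. Rpl13, a large subunit protein, was highest at 55.6 ± 17.5 CPM (SD, n = 7), and Rpl9 (44.2 ± 11.4), Rps24 (44.1 ± 11.2) and Rpl19 (43.4 ± 11.8) were also among the 5 highest. These latter 3 differed from one another by less than their SD over libraries. The lowest detected were Rpl39 (9.77 ± 3.05 CPM), Rpl36a (8.43 ± 2.28), Rps27l (2.81 ± 0.83), Rpl3l (0.332 ± 0.162) and Rpl39l, with 5 UMIs in all. Rpl10l, which is known from testis, was not detected; 0 of 345003430 UMIs allows up to 0.0087 CPM, counting error only. Small subunit genes gave 40.0 to 41.0% of the ribosomal protein UMIs in every library, and 39.2 to 42.1% as the mean of each class.

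By role, the stalk proteins of the large subunit differed in level. In whole libraries the average log2 CPM was 4.95 for Rplp1, 4.54 for Rplp2 and 3.70 for Rplp0. Per kilobase of annotated exon, Rplp1 had the most of all members with 62.9 CPM per kb, against 11.3 for Rplp2 and 7.87 for Rplp0. The annotated exons span 499, 2072 and 1659 bp in that order. A UMI counts a molecule, so the gap per kilobase also carries these differences in exon length. Rpsa, the small subunit protein also known as the laminin receptor, stood at 37.6 ± 10.8 CPM and Rps6 at 21.5 ± 4.67 CPM. Rpl5 and Rpl11, which can bind Mdm2 outside the ribosome, stood at 23.6 ± 4.03 and 36.6 ± 9.75 CPM. Rps4x, the X-linked small subunit protein, had 23.7 ± 6.32 CPM.

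Endothelial nuclei gave the largest share of their UMIs to ribosomal protein genes, and neurons the smallest. The share was 1.78 ± 0.513% (SD, n = 7 libraries) in endothelial nuclei, with a range of 1.33 to 2.76%. Fibroblasts and mural cells came next at 0.629 ± 0.138%, followed by microglia at 0.559 ± 0.0971%, ependymal cells at 0.484 ± 0.149% and oligodendrocytes at 0.463 ± 0.113%. Astrocytes had 0.346 ± 0.0815%, choroid plexus epithelium 0.335 ± 0.0978% (n = 6), oligodendrocyte precursors 0.282 ± 0.0623% and committed precursors 0.272 ± 0.0469%. Medium spiny neurons had 0.168 ± 0.0378% (n = 6), inhibitory neurons 0.154 ± 0.0331% and excitatory neurons 0.126 ± 0.0282%.

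Neighbours in this order mostly overlapped. Endothelial nuclei lay above fibroblasts and mural cells in 7 of 7 libraries with no overlap of ranges, and committed precursors lay above medium spiny neurons in 6 of 6. Oligodendrocytes lay above astrocytes, and inhibitory above excitatory neurons, in 7 of 7 libraries although the ranges overlapped across libraries. Fibroblasts and mural cells against microglia (5 of 7), ependymal cells against oligodendrocytes (4 of 7) and medium spiny against inhibitory neurons (3 of 6) did not differ beyond their spread. After each nucleus was thinned to 500 UMIs all 12 classes kept their place: endothelial nuclei held 6.13 ± 1.48 ribosomal protein UMIs and excitatory neurons 0.700 ± 0.162. Thinning leaves the expected share of a nucleus unchanged. The order was therefore nearly fixed in advance and cannot show whether it depends on depth. The largest cluster without a name, led by Ttr, mitochondrial genes and the haemoglobin gene Hbb-bs, held 6.19 ± 0.972 on the same scale.

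**Figure D1:**
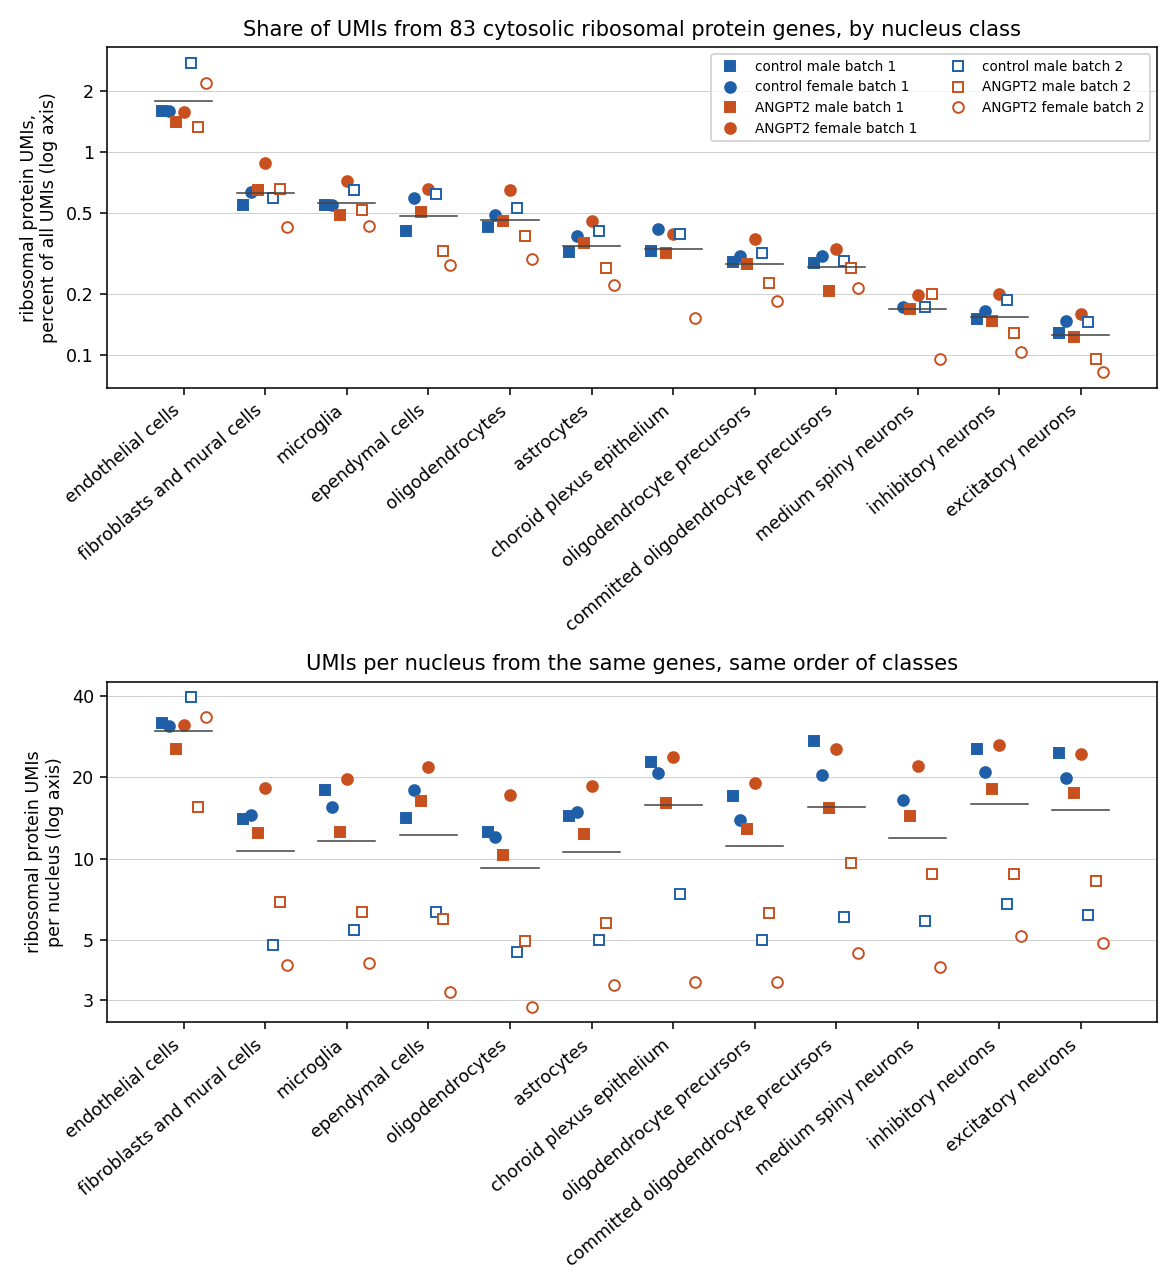
The upper panel shows ribosomal protein UMIs as percent of all UMIs and the lower panel ribosomal protein UMIs per nucleus, both on log axes, for 12 nucleus classes; each point is 1 library and the line is the mean. Shares fall from endothelial nuclei to neurons, while UMIs per nucleus cover at most a 2.16-fold range within a library once endothelial nuclei are set aside.

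The number of ribosomal protein UMIs per nucleus varied much less between classes than the share did. In the control male of batch 2, for example, the 11 classes other than endothelial held 4.51 to 7.39 ribosomal protein UMIs per nucleus, a 1.64-fold range, while their shares covered a 4.48-fold range. Over the 7 libraries the range of UMIs per nucleus among these classes was 1.53- to 2.16-fold and that of the shares 4.29- to 6.89-fold. Excitatory neurons, with library medians of 3940 to 17461 UMIs per nucleus, had the lowest share but not the fewest ribosomal protein UMIs, and oligodendrocytes had the fewest in all 7 libraries. As a class, endothelial nuclei were higher on both scales. They held 25.5 to 31.8 ribosomal protein UMIs per nucleus in batch 1, 1.42 to 1.88 times the median of the other classes of the same library. In batch 2 they held 39.5 in the control male, 15.5 in the ANGPT2 male and 33.4 in the ANGPT2 female, 6.74, 2.33 and 8.39 times that median. A threshold of 2 percent of UMIs from these genes was then set, after the values were seen. Much of the endothelial total lay in the nuclei that reached it. Without them the endothelial nuclei held 13.1, 13.3, 15.4 and 21.4 ribosomal protein UMIs in batch 1 and 5.79, 5.27 and 6.97 in batch 2, in the library order control male, control female, ANGPT2 male, ANGPT2 female, with no control female in batch 2. That was below the median of the other classes in 5 of 7 libraries. It was above that median in 2, by 1.07 times in the ANGPT2 male of batch 1 and 1.75 times in the ANGPT2 female of batch 2. The cut selects on the ribosomal protein UMIs themselves, so a fall was fixed in advance, and the other classes were not cut. The remaining endothelial share, 0.547 to 1.14%, still lay above fibroblasts and mural cells in all libraries but the ANGPT2 male of batch 2 (0.547 against 0.657%).

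Within a class the share moved with depth and with the mitochondrial share. When the nuclei of each library were split into 4 equal parts by UMIs, the share in excitatory neurons was 0.183 ± 0.0437% in the shallowest part and 0.0960 ± 0.0202% in the deepest, and the deepest was lower in 7 of 7 libraries. Medium spiny neurons went from 0.437 ± 0.142% to 0.115 ± 0.0273% (6 libraries) and oligodendrocytes from 0.532 ± 0.154% to 0.399 ± 0.0917% (7 libraries). Endothelial nuclei went the other way, from 1.05 ± 0.397% to 2.58 ± 0.639%, with the deepest part higher in 7 of 7 libraries. Split by the share of mitochondrially encoded UMIs, the top part was higher than the bottom part in 7 of 7 libraries in endothelial nuclei (0.695 ± 0.139% and 2.94 ± 0.516%), microglia (0.452 ± 0.0696% and 0.702 ± 0.157%) and excitatory neurons (0.100 ± 0.0194% and 0.171 ± 0.0443%).

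The endothelial share came mostly from a minority of nuclei. At the threshold of 2 percent, 84 of 449 endothelial nuclei (18.7%) reached it and held 67.7% of the endothelial ribosomal protein UMIs. In the other 11 named classes at most 0.904% of nuclei reached 2 percent, and among the unnamed nuclei 10.8% did. In the control libraries 10.9% (male, batch 1), 9.80% (female, batch 1) and 31.2% (male, batch 2) of endothelial nuclei reached it. In the ANGPT2 libraries these were 15.7% (male, batch 1), 20.6% (female, batch 1), 7.50% (male, batch 2) and 22.0% (female, batch 2), so the groups overlapped. The 84 nuclei had a median of 2557.5 UMIs and 1.54% mitochondrial UMIs, against 1272 UMIs and 0.749% in the rest. The mitochondrial share was higher in the high nuclei of all 7 libraries, but in 3 of the 4 libraries of batch 1 they had fewer UMIs than the rest, for example 1375 against 1684 in the ANGPT2 female. Endothelial markers made up 1.87% of their UMIs and 1.36% in the rest, and none of the 11 was at 0. They were higher in the high nuclei in 6 of 7 libraries; in the control male of batch 1 they stood at 1.27% against 1.36%. The 10 mural markers made up 0.298 to 0.549% of UMIs per library in the high nuclei and 0.0168 to 0.166% in the others, with more in the high nuclei in 7 of 7 libraries and no marker at 0. Their part in the result was not tested.

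**Figure D2:**
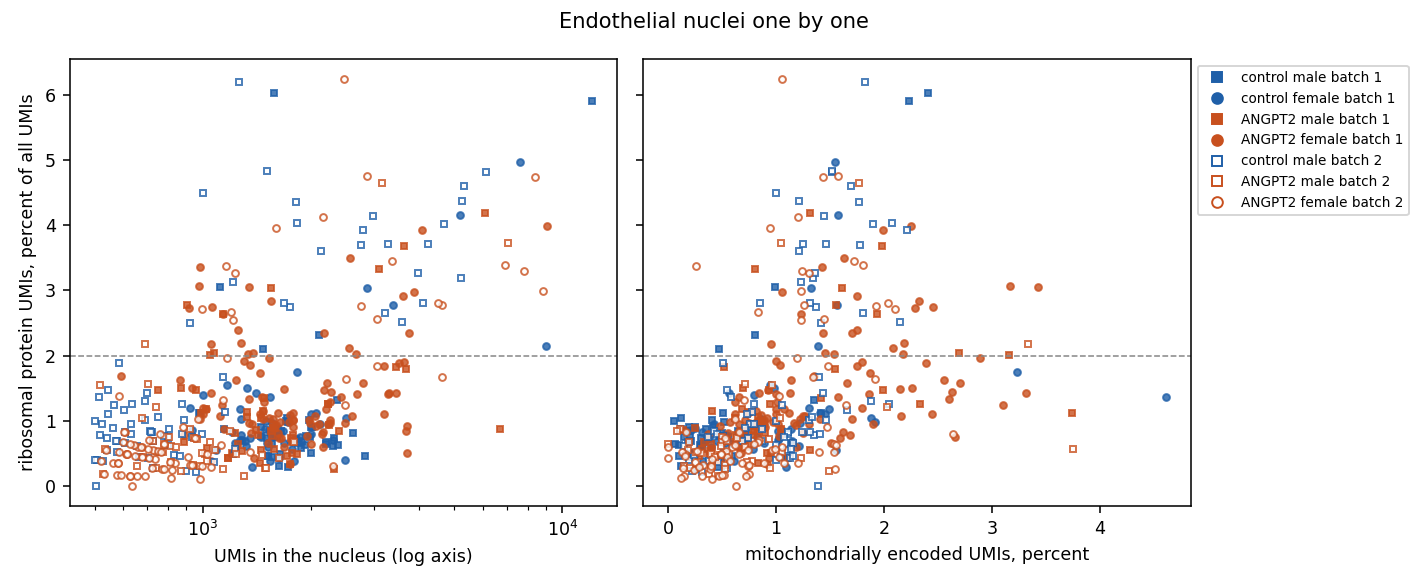
Each point is 1 of 449 endothelial nuclei, with ribosomal protein UMIs as percent of its UMIs on the vertical axis, against its total UMIs (left, log axis) and its percent of mitochondrially encoded UMIs (right); the dashed line is 2 percent. Most nuclei lie under 2 percent, and the 84 at or above it come from all 7 libraries.

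The mix of ribosomal protein genes also differed between classes, for a few members by a large amount. Over the classes, 9 members had at least 50 UMIs in each of the 12, and Rpl13, Rpl3, Rpl6 and Rpsa were the most variable of those reported here. Here and in the next paragraph, the classes set against each other were picked for a gene's high and low mean in these same libraries. A high count of libraries was therefore favoured in advance. Rpl13 took 5.04 ± 0.863% of the ribosomal protein UMIs in oligodendrocyte precursors and 2.50 ± 0.202% in excitatory neurons, and was higher in the precursors in 7 of 7 libraries. The gene (chr8:123102350-123105244, GRCm38) overlaps the gene model Gm20388, and 80.03% of its 60-base stretches were shared with other genes. Rpl3, which lines the peptidyl transferase centre, took 2.07 ± 0.245% in medium spiny neurons and 1.30 ± 0.401% in endothelial nuclei; the first mean includes the control male of batch 1, with 5 medium spiny nuclei. Rpl6 took 2.40 ± 0.351% in inhibitory neurons against 1.70 ± 0.275% in endothelial nuclei, and Rpsa took 2.09 ± 0.154% in oligodendrocytes against 1.37 ± 0.262%, each higher in 7 of 7 libraries.

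In the 8 classes with at least 10000 ribosomal protein UMIs, 78 members could be compared, and the 3 that varied most were named after their values were seen. Rpl10a, the large subunit protein of the L1 stalk, took 3.24 ± 0.665% of ribosomal protein UMIs in microglia and 0.659 ± 0.141% in endothelial nuclei. By library the microglial values were 4.04, 4.18, 2.67, 2.83, 2.78, 2.64 and 3.52%, and each lay above every endothelial value, the highest of which was 0.822%. Rpl22 took 1.37 ± 0.170% in excitatory neurons and 0.578 ± 0.263% in endothelial nuclei, and its paralog Rpl22l1 took 0.905 ± 0.192% and 0.380 ± 0.130%. Both were higher in excitatory neurons in 7 of 7 libraries. The SD of the log2 share over the 8 classes was 0.68 for Rpl10a, 0.47 for Rpl22 and 0.41 for Rpl22l1, and its median over the 78 members was 0.16. Of their 60-base stretches, 77.17% were shared with other genes for Rpl10a, 3.665% for Rpl22 and 54.36% for Rpl22l1. The part of this sharing was not tested. Log2 ratios of share between endothelial nuclei and excitatory neurons had a Spearman correlation of -0.098 with intron length across the 78 members, which share libraries and depth and are not replicates.

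**Figure D3:**
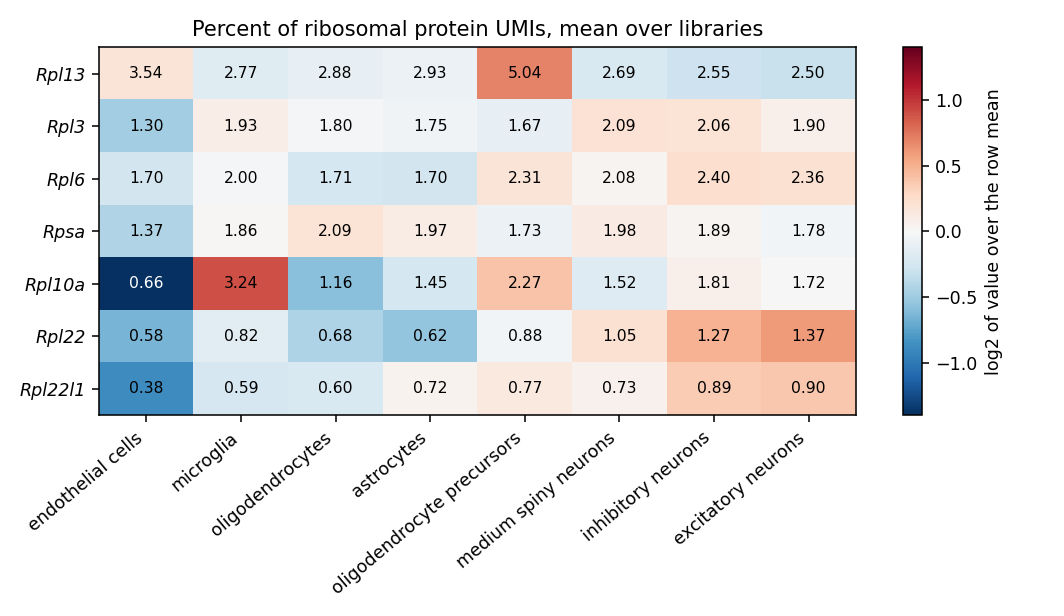
Each cell gives the percent of a class's ribosomal protein UMIs taken by 1 gene, as the mean over libraries, and its colour the log2 of that value over the row mean; columns are the 8 classes with the most ribosomal protein UMIs, and the medium spiny means leave out the control male of batch 1. Rpl10a stands out in microglia at 3.24 and is lowest in endothelial nuclei at 0.66, and Rpl13 stands out in oligodendrocyte precursors at 5.04.

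Paralogs of like name did not follow one pattern. Rpl7l1, a factor of large subunit assembly named after Rpl7, took 55.7 to 64.9% of the UMIs of the Rpl7 and Rpl7l1 pair in excitatory neurons and 17.0 to 36.4% in oligodendrocytes, and was higher in the neurons in 7 of 7 libraries. Rpl22l1 took 43.4% of its pair over whole libraries, and Rps27l took 16.4% of its pair with Rps27. Rpl3l, known from heart and skeletal muscle, had 109 UMIs, of which 96 came from the 3 neuron classes and 7 from astrocytes. Scaled to depth over the pooled libraries, it stood at 0.864 CPM in astrocytes, 0.835 in medium spiny neurons, 0.562 in inhibitory neurons and 0.223 in excitatory neurons. In oligodendrocytes it had 0 UMIs, which allows up to 0.146 CPM. In microglia 0 UMIs allows up to 0.508 CPM, so a difference from excitatory neurons was not detectable at this depth. Rpl39l, with 5 UMIs, gives no comparison with Rpl39, and no gene named Rps4l was among the 83.

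Rplp1, the acidic stalk protein P1, varied between libraries far more than any other member with at least 500 UMIs. Its share of the ribosomal protein UMIs was 1.57% in the control male of batch 1, 0.662% in the control female of batch 1 and 2.34% in the control male of batch 2. In the ANGPT2 libraries it was 0.683% (male) and 1.68% (female) in batch 1, and 2.03% (male) and 1.94% (female) in batch 2. Thus 1 library of each group was low, and the groups overlapped.
The SD of the log2 share over the 7 libraries was 0.75 for Rplp1, 0.34 for the next of the 80 members compared (Rps27l) and 0.11 at the median. The same low pair, the control female and the ANGPT2 male of batch 1, lay below the other libraries in 11 of 12 classes; the exception was choroid plexus epithelium, with 31 Rplp1 UMIs. In excitatory neurons the pair had 0.635 and 0.640% and the rest 1.24 to 2.18%. The share of its partner Rplp2 varied little, with an SD of log2 of 0.07: it was 1.08% in the control female and 1.18% in the ANGPT2 male of batch 1, against 1.11% in the control male and 1.25% in the ANGPT2 female of that batch and 1.15 to 1.22% in batch 2. Among the 9205 genes with a mean of at least 10 CPM, Rplp1 had the 71st largest SD of log2 CPM over libraries.

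**Figure D4:**
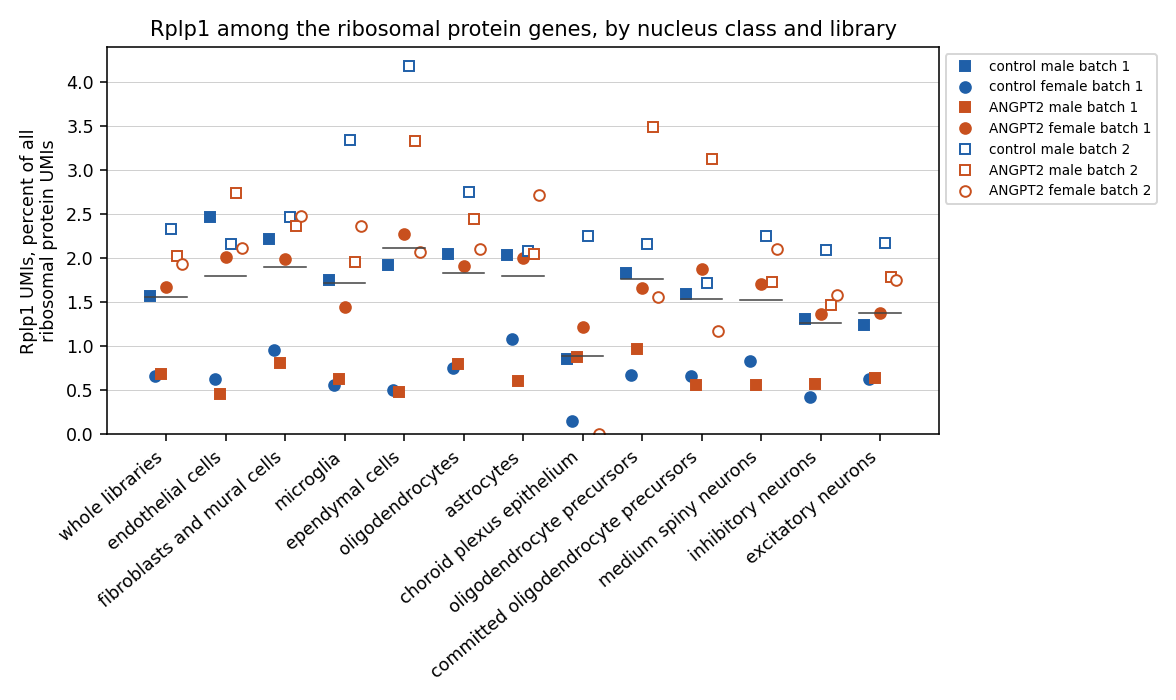
The vertical axis gives Rplp1 UMIs as percent of all ribosomal protein UMIs for whole libraries and for 12 nucleus classes; each point is 1 library and the line is the mean. The control female and the ANGPT2 male of batch 1 lie lowest in whole libraries (0.662 and 0.683%) and in every class but choroid plexus epithelium.

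The ANGPT2 AAV and control AAV libraries overlapped in their share of ribosomal protein UMIs in all 12 classes. Over whole libraries the control values were 0.184, 0.198 and 0.226% and the ANGPT2 values 0.178, 0.287, 0.202 and 0.123%, in the order male and female of batch 1, then batch 2. The group means were 0.203 ± 0.0213% and 0.197 ± 0.0682%. The 2 ANGPT2 females lay on either side of all controls: the female of batch 1 was the highest library in 9 of 12 classes and the female of batch 2 the lowest in 10 of 12. In whole libraries, shifts in the mix of nuclei and in RNA per nucleus cannot be told apart.

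Excitatory neurons had shares of 0.128, 0.146 and 0.145% in the controls and 0.122, 0.159, 0.0954 and 0.0821% in the ANGPT2 libraries. The ANGPT2 libraries of batch 2 were the lowest, and the ANGPT2 female of batch 1 the highest. The log2 difference was -0.33 over both batches, 0.03 within batch 1 and -0.72 within batch 2, with a pooled SD of 0.33. The mitochondrial share of these nuclei was highest in the same female of batch 1 (0.147%). It stood at 0.0760 and 0.0794% in the ANGPT2 libraries of batch 2 against 0.135% in their control. The lowest mitochondrial share was 0.0452%, in the control male of batch 1. The ribosomal protein share of that library (0.128%) lay above the ANGPT2 male of batch 1 and both ANGPT2 libraries of batch 2. The part of the mitochondrial share was not tested.
In endothelial nuclei the controls had 1.59, 1.59 and 2.76% and the ANGPT2 libraries 1.41, 1.58, 1.33 and 2.20%. The control male of batch 2 was the highest and the ANGPT2 female of batch 2 the next, and the log2 difference was -0.26 with a pooled SD of 0.38. Within batches it was -0.09 and -0.69. Without the nuclei at 2 percent or more, a setting added after seeing the data, the shares were 0.730, 0.854 and 0.812% in the controls and 0.902, 1.14, 0.547 and 0.750% in the ANGPT2 libraries, and the log2 difference was 0.02. Of the 12 classes, 9 had a difference above 0 in batch 1 and below 0 in batch 2, and in 3 (endothelial, choroid plexus and committed precursors) both were below 0.

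No ribosomal protein gene passed an adjusted p of 0.05 between the groups in whole libraries or in any class. In whole libraries, by edgeR's quasi-likelihood test, 0 of 81 tested members passed, as did 0 of 19993 genes (0%); 0 members had an unadjusted p under 0.05, against 2.83% of all genes, and DESeq2 also gave 0. The median log2 change of the members was 0.02, beside -0.02 over all genes, and 55 of 81 lay above 0 against 46.1% of all genes. The members with the smallest p above 0 were Rps25 (0.28, SE 0.19), Rpl31 (0.32, SE 0.22) and Rpl37a (0.21, SE 0.20), and below 0 were Rpl7l1 (-0.26, SE 0.18), Rpl10a (-0.21, SE 0.18) and Rpl22l1 (-0.21, SE 0.20). Each had an edgeR adjusted p of 0.999. The side of the median rested on single libraries: leaving out the ANGPT2 female of batch 1 gave -0.14, with 72 of 81 members below 0, and leaving out the control male of that batch gave -0.07. Leaving out the ANGPT2 female of batch 2 gave 0.18. In simulated counts for this comparison, 46.0% of 2-fold and 96.0% of 4-fold increases were recovered. Here and below the changed genes were drawn at random from all genes tested, so the rates are not particular to the members.

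In excitatory neurons 78 of 80 tested members had a log2 change below 0, against 53.6% of 17933 genes, with a median of -0.19 beside -0.02. None passed the adjusted threshold by edgeR (0% of all genes did) or by DESeq2, and 1 had an unadjusted p under 0.05, against 4.35% of all genes. That gene was Rpl22l1, with 12.4, 18.2 and 11.3 CPM in the controls and 9.34, 11.1, 8.05 and 8.56 CPM in the ANGPT2 libraries. Every ANGPT2 value lay below every control, by a narrow gap (11.1 against 11.3), and this held for 1 of 80 members and 3.3% of all genes. Its log2 change was -0.53 (SE 0.20, edgeR adjusted p = 0.892), and it was -0.52 within batch 1 and -0.40 within batch 2.
Rpl6 (-0.35, SE 0.17) and Rpl18 (-0.47, SE 0.23) came next, and both ranged widely between batches: -0.16 and -0.69 for Rpl6, and -0.09 and -1.14 for Rpl18. The only members above 0 were Rpl31 (0.08, SE 0.18) and Rpl12 (0.01, SE 0.16). Without the ANGPT2 female of batch 1 all 80 lay below 0 with a median of -0.34, and 21 had an unadjusted p under 0.05. The median was -0.09 when either the ANGPT2 female of batch 2 or the control female of batch 1 was left out, with 14 and 18 members above 0. In simulated counts for these nuclei 58.0% of 2-fold increases and 54.0% of 2-fold decreases were recovered.

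In endothelial nuclei 61 of 74 members lay below 0, against 49% of 2602 genes, with a median of -0.23 beside 0.01. None passed by edgeR (0% of all genes) or DESeq2, and 2 had an unadjusted p under 0.05 (1.77% of all genes). Rpl24, a large subunit protein at the subunit interface, had 229, 261 and 390 CPM in the controls and 131, 139, 151 and 225 CPM in the ANGPT2 libraries. Rpl14 had 218, 211 and 272 CPM in the controls and 185, 94.5, 86.0 and 177 CPM in the ANGPT2 libraries.
For both genes every ANGPT2 value lay below every control, as for 3 of 74 members and 1.88% of all genes. The log2 changes were -0.87 (SE 0.31) and -0.78 (SE 0.33), each with an edgeR adjusted p of 0.9998. Rpl13 stood at -0.69 (SE 0.35) with 1 control far above the rest (1368 CPM in the male of batch 2 against 387 to 674 elsewhere). Above 0 were Rpl27 (0.48, SE 0.35), Rps21 (0.33, SE 0.33) and Rpl37a (0.27, SE 0.33). Without the control male of batch 2 the median turned to 0.10, with 48 of 75 members above 0. Without the ANGPT2 female of batch 2 the median was -0.45. Simulated 2-fold changes were recovered in 32.0% of increases and 10.0% of decreases in these nuclei.

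The other classes showed medians on both sides of 0. In fibroblasts and mural cells 52 of 63 members lay above 0 (52.2% of 4278 genes), with a median of 0.27, which was 0.03 when the ANGPT2 female of batch 1 was left out and 0.07 when the control male of that batch was. Rpl21 had the smallest p there (0.83, SE 0.33, edgeR adjusted p = 0.9995), and below 0 it was Rpl10a (-0.75, SE 0.38). Medians were -0.04 in astrocytes, 0.00 in oligodendrocytes, 0.01 in microglia, -0.03 in oligodendrocyte precursors, -0.06 in inhibitory neurons and 0.06 in medium spiny neurons, with 78 to 80 members tested in each. Fewer members could be tested in ependymal cells (23, median -0.15), committed precursors (13, median -0.11) and choroid plexus epithelium (8, median -0.15). No member passed by edgeR or DESeq2 in these classes, and by edgeR no gene did (0% in each class). At an unadjusted p under 0.05 there were 3 members in fibroblasts and mural cells (4.04% of all genes), and 1 each in microglia (3.01%), oligodendrocyte precursors (5.07%), medium spiny neurons (2.15%), committed precursors (3.55%) and ependymal cells (4.32%). There were 0 in astrocytes (3.24%), oligodendrocytes (2.45%), inhibitory neurons (6.01%) and choroid plexus epithelium (4.52%).

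A few single genes recurred among the smallest p in these classes, which share libraries and are not independent. In microglia Rps25 had 26.5, 30.7 and 22.9 CPM in the controls and 36.1, 40.8, 38.8 and 47.9 CPM in the ANGPT2 libraries, so that every ANGPT2 value lay above every control (1 of 79 members, 1.39% of genes). Its log2 change was 0.62 (SE 0.23, edgeR adjusted p = 0.9998), and 0.42 and 0.89 within the batches. In excitatory neurons the same gene stood at -0.07 (SE 0.17). Rpl10a had the smallest p below 0 in astrocytes (-0.42, SE 0.23), inhibitory neurons (-0.34, SE 0.17) and microglia (-0.38, SE 0.18), and Rpl31 the smallest above 0 in astrocytes (0.48, SE 0.25) and oligodendrocytes (0.39, SE 0.21). Below 0 in oligodendrocytes it was Rps9 (-0.29, SE 0.25). Rps25 led above 0 in inhibitory neurons (0.36, SE 0.21). In medium spiny neurons Rpl23a led above 0 (0.82, SE 0.36) and Rps12 below (-0.45, SE 0.22). In oligodendrocyte precursors these were Rps23 (0.52, SE 0.32) and Rpl23 (-0.76, SE 0.29). Committed precursors had Rpl13 (0.46, SE 0.46) and Rpl24 (-1.26, SE 0.58), ependymal cells Rps14 (0.47, SE 0.37) and Rpl13 (-1.13, SE 0.40), and choroid plexus epithelium had Rpl9 below 0 (-0.50, SE 0.43).

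**Figure D5:**
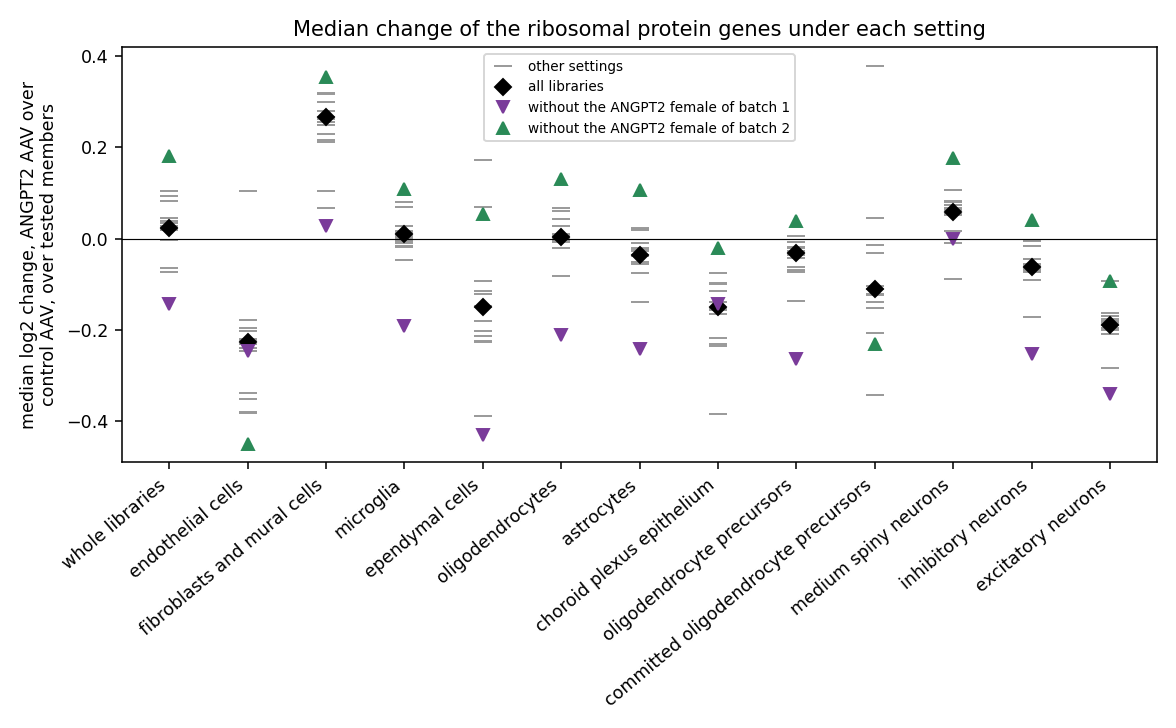
The vertical axis gives the median log2 change of the tested ribosomal protein genes, ANGPT2 AAV over control AAV, in whole libraries and 12 classes; diamonds use all libraries, triangles leave out 1 ANGPT2 female and grey dashes are the other settings. The diamond lies at -0.19 in excitatory neurons and 0.02 in whole libraries, and the lowest median came without the ANGPT2 female of batch 1 in 9 of 13 columns.

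Genes that work with the ribosome were read beside it from lists by role. In excitatory neurons, where 53.6% of all genes lay below 0, so did 24 of 28 translation factors and ribosome partners with a median log2 change of -0.17, as did 33 of 40 ribosome biogenesis genes (-0.14) and 66 of 78 mitochondrial ribosomal proteins (-0.15), beside 78 of 80 members. Among the partners, Rack1, a scaffold on the small subunit, stood at -0.47 (SE 0.17) and the helicase Eif4a1 at -0.42 (SE 0.16). Among the biogenesis genes Dkc1, the pseudouridine synthase, stood at -0.48 (SE 0.14, edgeR adjusted p = 0.892). Rack1, Eif4a1 and Dkc1 were not set by the naming rule and were chosen later. The 27 genes of the mTORC1 and S6 kinase pathway were split, 14 above and 13 below 0 with a median of 0.00. The 13 mitochondrially encoded genes all lay above 0 with a median of 0.24, but the batches differed. In batch 1 the mitochondrial share of excitatory neurons was 0.0452 and 0.0947% in the controls and 0.0828 and 0.147% in the ANGPT2 libraries. In batch 2 it was 0.135% in the control and lower in the ANGPT2 libraries, at 0.0760 and 0.0794%. No gene of these lists passed the adjusted threshold in excitatory neurons by edgeR or DESeq2, where 2 partners, 2 biogenesis genes, 5 pathway genes, 1 of 78 mitochondrial ribosomal proteins and 0 mitochondrially encoded genes had an unadjusted p under 0.05, against 4.35% of all genes. In whole libraries the partners had a median of -0.03, biogenesis genes -0.10, the pathway -0.03, mitochondrial ribosomal proteins -0.07 and mitochondrially encoded genes 0.34, with 0 genes called by edgeR or DESeq2. The mitochondrial share of whole libraries in batch 1 was 0.0833 and 0.154% in the controls and 0.144 and 0.296% in the ANGPT2 libraries. In batch 2 it was 0.238% in the control and lower in the ANGPT2 libraries, at 0.177 and 0.139%.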

How the data were processed

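Per the submitters' processing notes the authors used Cell Ranger 6.1.2 with mm10 (GRCm38) and deposited raw UMI counts per gene and barcode; whether intronic or multiply mapped reads were counted was not given in the sources used here. Nuclei needed at least 300 genes and under 5 percent mitochondrial UMIs; doublets were called per library against simulated ones. Nuclei were clustered (leidenalg 0.10.2) on 2500 variable genes without ribosomal protein, mitochondrial or sex-linked genes, and named from marker genes. Counts were summed per library and class (at least 10 nuclei) and fitted over all genes with edgeR 4.0.16 (TMM, quasi-likelihood test, Benjamini-Hochberg adjustment over all genes tested; minimum count 10), tested on simulated data first. DESeq2 1.42.0 was an alternative, with another scaling, no filter, sex, batch as replicate block, each library left out, doublets kept, finer clusters and a 1 percent mitochondrial limit. 2 libraries were left out of a class: the control male of batch 1 in medium spiny neurons and the ANGPT2 male of batch 2 in choroid plexus epithelium. The labels do not name an animal for each library, so p-values measure the spread between these libraries, which may be technical. For single genes, values within a batch are differences of mean log2 of CPM plus 1, without the TMM factors. The change over both batches can therefore lie outside them. For shares they are differences of mean log2 of the share, with nothing added.
The labels give a shared batch. Deviations from the group means were correlated for pairs of a control and an ANGPT2 library only. They correlated at 0.0784 to 0.424 in the 6 pairs of one batch and at -0.400 to 0.0724 in the 6 pairs across batches. The members and lists were chosen with earlier results of these data known. Named genes were the 5 highest and 5 lowest, the smallest p in each direction (3 in whole libraries, excitatory and endothelial nuclei, 1 elsewhere), the 5 most variable between classes and a set by role; others are said to be chosen later. 1 gene that the rule names is not reported here. Intervals and limits of 0 counts (3 counts) cover counting error only.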

Additional observations from a re-analysis of the deposited data

How the results depend on the processing

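No setting gave a ribosomal protein gene past the threshold in any of 218 fits, and the 179 alternative values of the share difference moved by less than the spread between libraries. With batch as a replicate block the log2 difference of the share was -0.34 in excitatory neurons, -0.39 in endothelial nuclei and -0.14 in whole libraries, and the block changed no call. Leaving out 1 library, the share difference ran from -0.30 to 0.11 in whole libraries and from -0.41 to 0.01 in endothelial nuclei. The order of classes kept 10 to 12 of 12 places. Log2 changes of named genes changed sign in 9 of 567 alternatives, for 4 genes. The log2 change of Rpl12, excitatory neurons, was -0.00237 without the filter on low counts, -0.0186 with sex as a term and -0.0746 to 0.0932 without single libraries. Over the fits without 1 library the log2 change of Rpl31, excitatory neurons, was -0.0154 to 0.226, the log2 change of Rpl37a, endothelial cells, -0.0247 to 0.386, and the log2 change of Rpl22l1, whole libraries, -0.353 to 0.0161. The cause was not tested. Depth limits rare classes: with the 1 percent mitochondrial limit only 4 members could be tested in endothelial nuclei, and batch 2 is the shallower batch.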
